A study of Bos taurus with 13 samples.

Results

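Genes that encode secreted products and junction proteins of Sertoli cells were followed in the testes of 13 newborn bull calves. FATE1, which is placed in neither class here, was followed with them, which made 9 genes in all. They were CLU, PTGDS, TF, CLDN11, OCLN, TJP1, CDH2, GJA1 and FATE1, all but FATE1 named by their role. The choice was made with earlier results of these data known. Each gene was read from the probe sets whose only gene symbol in the platform annotation was that gene, and each of the 9 had exactly 1 such probe set, so no choice between probe sets arose. The genes are 9 of 18087 with a probe set of their own on the array. Testis RNA of each calf was hybridised to its own 1-colour Affymetrix array. Angus cross dams had free access to a vitamin and mineral mix with 35 ppm selenium from 4 months before breeding and through gestation. Selenium came from sodium selenite in the ISe group (inorganic, 5 calves), from Sel-Plex in the OSe group (organic, 4 calves), or 50% from each source in the Mix group (4 calves). Every group thus received selenium at the same concentration, and intake was not fixed. Testes were collected within 2 days of birth, and the 13 calves come from a trial of 24 cows, 8 per treatment.

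Sertoli cells are the somatic cells of the seminiferous cords and nurse the germ cells. They secrete carrier and protective proteins into the cord. They are joined to one another by tight, adherens and gap junctions. In the adult these junctions make up the blood-testis barrier, which forms around puberty, so a newborn testis has the junction genes before the barrier is complete. Clusterin, prostaglandin D synthase and transferrin are classical secreted products of Sertoli cells. None of the 9 genes is made only by Sertoli cells, and in whole testis RNA fewer cells of a type and less RNA per cell cannot be told apart.

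The labelled tissue carried its defining markers. On the log2 scale, means over 13 arrays were 12.48 for AMH, 11.81 for the FSH receptor FSHR and 10.88 for GATA4, all Sertoli cell genes, 13.44 for the Leydig cell hormone INSL3 and 8.83 for the germ cell helicase DDX4. All 13 measured Sertoli cell markers had means above the 25th percentile of all probe sets (6.26), a cut that most probe sets pass. Of the 13, 10 lay above the median of all means (7.64). INHBB (7.14), NR0B1 (7.08) and TRIM71 (6.5) lay below it. Of 9 Leydig cell markers 8 lay above the same median, with HSD17B3 (6.84) below it. Of 14 germ cell markers 10 did, with NANOS2 (7.07), NANOS3 (7.14), SALL4 (7.14) and DPPA4 (6.03) below. DPPA4 also lay under the 25th percentile. Array medians lay between 7.61 and 7.65 in 12 calves and at 7.74 in OSe animal 2. Values are the deposited log2 expression values. The brightness of a probe set depends on its probes as well as on the RNA, so amounts of RNA are compared between calves within a gene and not between genes. Where a gene is placed among all probe sets, only brightness is described.

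Among the secreted products, CLU and PTGDS were bright and even, and TF varied widely between calves. CLU encodes clusterin, an extracellular chaperone. Its level was 13.64, 13.58, 13.57, 13.59 and 13.61 in ISe animals 1 to 5. It was 13.56, 13.47, 13.54 and 13.60 in OSe animals 1 to 4, and 13.60, 13.49, 13.54 and 13.56 in Mix animals 1 to 4. The 3 groups overlapped, and OSe animal 2 was the lowest calf. PTGDS encodes the lipocalin-type prostaglandin D synthase, which acts beside SOX9 in the fetal Sertoli cells of mice. PTGDS measured 13.58, 13.56, 13.62, 13.44 and 13.63 in ISe, 13.60, 13.42, 13.62 and 13.48 in OSe, and 13.55, 13.42, 13.57 and 13.55 in Mix. From the lowest to the highest calf, CLU spanned 1.12-fold and PTGDS 1.15-fold. Both lay near the top of the scale, whose highest value on any array was 14.6.

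TF encodes transferrin, the iron carrier that Sertoli cells pass to germ cells. TF measured 10.04, 9.01, 9.05, 9.19 and 9.87 in ISe animals 1 to 5. In OSe animals 1 to 4 it was 9.49, 9.83, 9.35 and 9.72, and in Mix animals 1 to 4 it was 9.26, 8.64, 9.32 and 9.13. The calves spanned 2.65-fold, from Mix animal 2 to ISe animal 1. ISe calves fell into a low trio (animals 2, 3 and 4) and a high pair (animals 1 and 5) that enclosed the OSe values from both sides. All 4 Mix calves lay below all 4 OSe calves, by a margin of 9.32 against 9.35.

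The tight junction genes differed in how evenly they were expressed. CLDN11, whose protein forms the parallel strands of Sertoli cell tight junctions, measured 8.29, 8.14, 8.23, 8.52 and 7.80 in ISe, 8.58, 8.98, 8.03 and 8.06 in OSe, and 8.21, 8.58, 8.61 and 8.56 in Mix. The OSe calves split into a high pair and a low pair, and the calves spanned 2.27-fold, from ISe animal 5 to OSe animal 2. OCLN encodes occludin, another membrane protein of the tight junction. Its values were 8.28, 8.43, 8.39, 8.34 and 8.39 in ISe, 8.66, 8.38, 8.37 and 8.45 in OSe, and 8.50, 7.92, 8.48 and 8.20 in Mix. ISe calves were close together, and Mix animal 2 was the lowest of all. TJP1 encodes ZO-1, the scaffold that ties claudins and occludin to actin. It measured 10.70, 10.67, 10.63, 10.67 and 10.62 in ISe, 10.63, 10.77, 10.67 and 10.62 in OSe, and 10.64, 10.70, 10.58 and 10.80 in Mix. It was the most even of the junction genes, with 1.17-fold from the lowest to the highest calf.

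CDH2 encodes N-cadherin, the adhesion protein of Sertoli-Sertoli and Sertoli-germ cell contacts. It measured 11.47, 11.05, 10.98, 11.19 and 11.45 in ISe, 11.48, 11.39, 11.38 and 11.19 in OSe, and 11.24, 11.40, 11.47 and 11.66 in Mix. The groups overlapped, and the highest calf was Mix animal 4. GJA1 encodes connexin 43, the main gap junction protein of Sertoli cells, which Leydig cells also make. It measured 10.29, 10.26, 10.77, 10.52 and 10.05 in ISe, 9.94, 10.59, 10.45 and 10.40 in OSe, and 10.04, 10.30, 9.75 and 10.76 in Mix. The highest ISe calf and the highest Mix calf were nearly level, and the range within Mix alone was almost that of all 13 calves. FATE1, named for its expression in fetal and adult testis, encodes a protein found at contacts between endoplasmic reticulum and mitochondria in human tumour cells. FATE1 measured 9.03, 8.46, 8.80, 8.83 and 8.29 in ISe, 8.48, 8.82, 9.40 and 8.52 in OSe, and 8.69, 9.30, 8.61 and 8.88 in Mix. Each group held at least 1 high calf and 1 low calf.

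**Figure D1:**
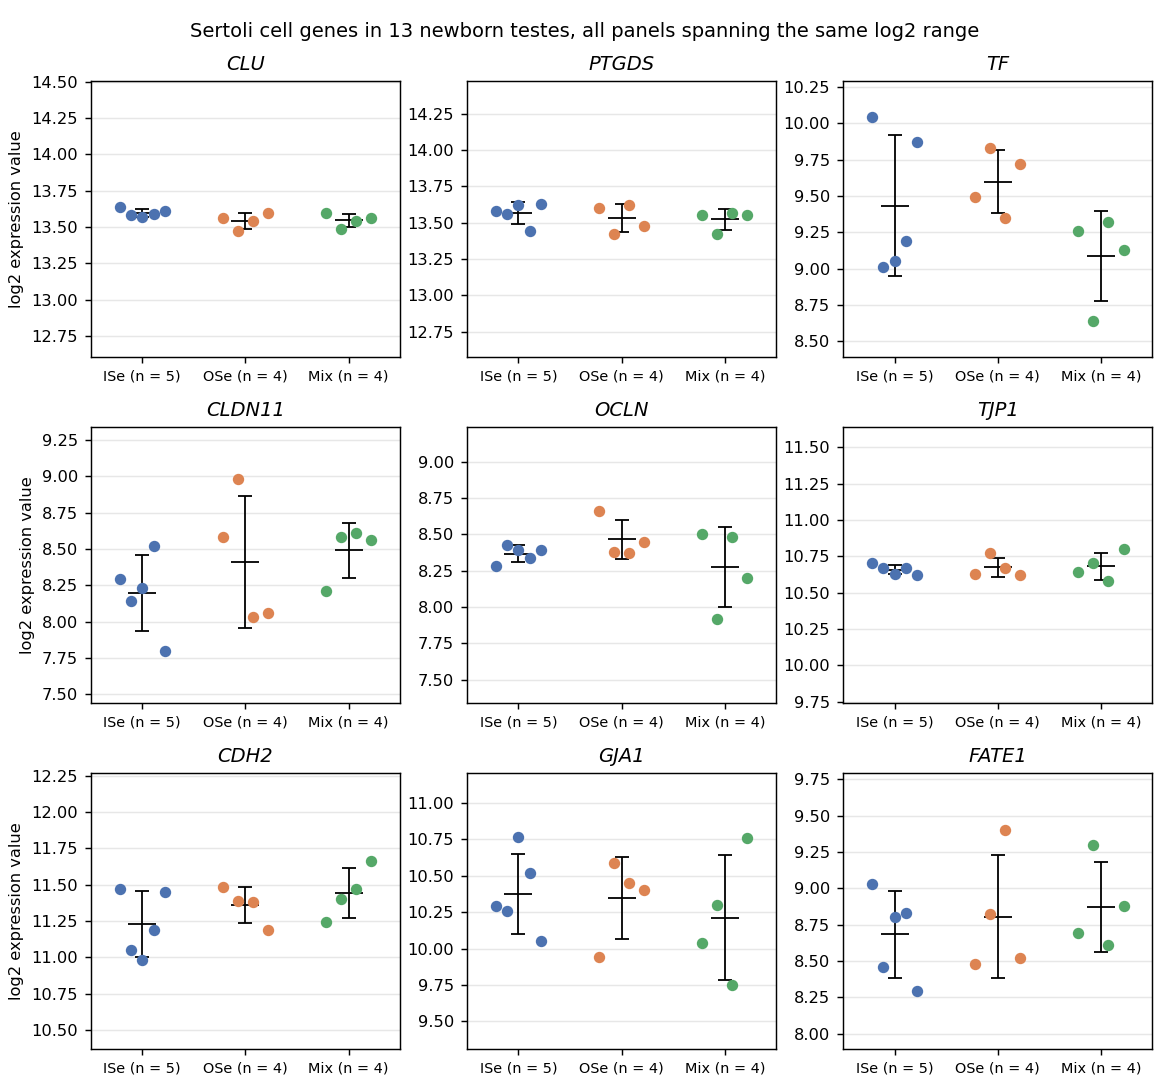
Log2 expression value of each gene (y axis) in each calf (points, in the order of animal numbers within a group), with the group mean and SD (black), for ISe, OSe and Mix. Every panel spans the same log2 range: CLU, PTGDS and TJP1 form flat rows, TF, CLDN11, GJA1 and FATE1 scatter over more than 1 log2 unit, and TF in the Mix calves lies below TF in the OSe calves.

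By their spread between calves of a group the 9 genes divided into even ones (CLU, TJP1 and PTGDS), intermediate ones (OCLN and CDH2) and variable ones (CLDN11, GJA1, FATE1 and TF). The within-group standard deviation (SD, on the log2 scale, over 13 calves) was 0.042 for CLU, 0.067 for TJP1 and 0.080 for PTGDS. It was 0.170 for OCLN and 0.184 for CDH2. It was 0.316 for CLDN11, 0.332 for GJA1, 0.344 for FATE1 and 0.371 for TF. Spread falls with brightness on these arrays, so each SD was placed among those of the 1000 probe sets nearest to the gene in mean level. There TF exceeded 97.0% of its neighbours, GJA1 96.2%, FATE1 91.5% and CLDN11 89.1%. CDH2 exceeded 78.2% and OCLN 49.8%. At the even end, PTGDS exceeded 19.2%, TJP1 3.7% and CLU 1.7%. The means of CLU and PTGDS lay at percentile 99.9 of all probe sets, so most of their 1000 neighbours were dimmer. For these genes the rank is thus not matched for brightness. The median SD of those neighbours was 0.115 around CLU and PTGDS and 0.15 around TF. The spread was thus smaller among brighter probe sets, and whether the top of the scale narrowed the values of CLU and PTGDS was not tested.

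**Figure D2:**
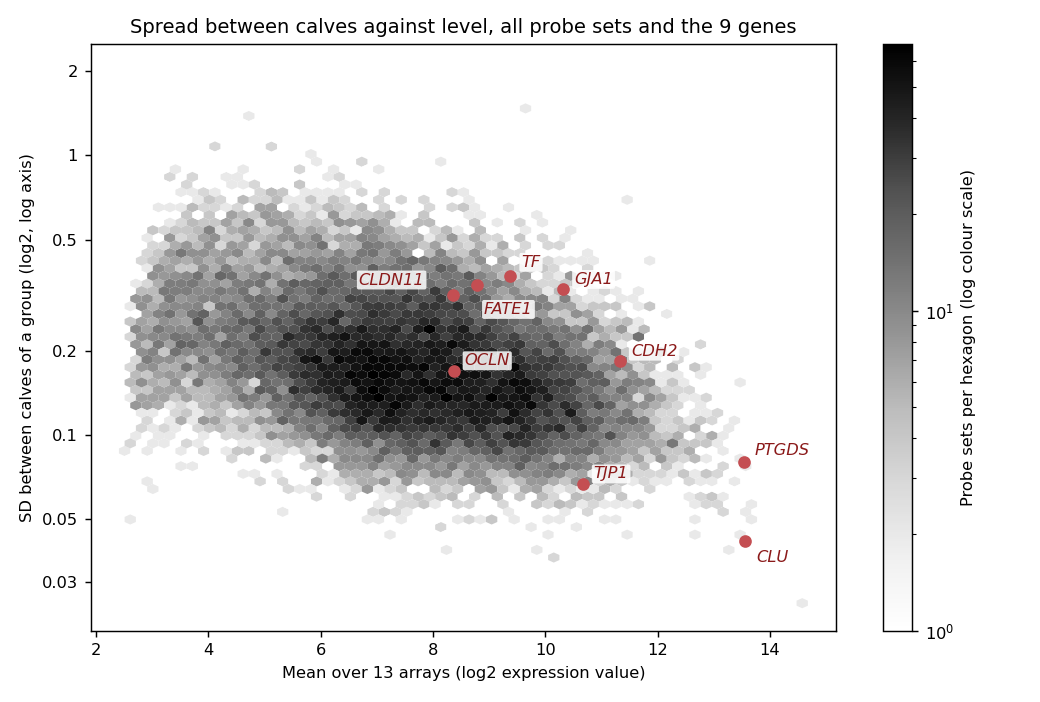
SD between calves of a group (log2, on a log axis) against the mean over 13 arrays (log2 expression value) for all 26773 probe sets (grey hexagons, darker for more probe sets) and the 9 genes (red). CLU (0.042) and TJP1 (0.067) lie at the lower edge of the cloud, and TF (0.371) and GJA1 (0.332) near its upper edge.

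The 3 selenium forms were compared to ask whether the source of maternal selenium was reflected in these genes. No gene of the 9 differed between the forms past the threshold. By the moderated F test of limma, 0 of 9 had an adjusted p under 0.05, with a background of 0% of 26773 probe sets, and 0 of 9 had an unadjusted p under 0.05, against 4.50% of all probe sets. Without moderation 0 of 9 passed after adjustment as well. Adjusted over all probe sets, p ran from 0.954 (TF, CLDN11, OCLN and CDH2) to 0.996 (TJP1). Given as mean ± SD for ISe (n = 5), OSe (n = 4) and Mix (n = 4) in that order, TF stood at 9.43 ± 0.49, 9.60 ± 0.22 and 9.08 ± 0.31. CLDN11 was at 8.19 ± 0.26, 8.41 ± 0.45 and 8.49 ± 0.19, and CDH2 at 11.23 ± 0.22, 11.36 ± 0.12 and 11.44 ± 0.17. For both genes the OSe mean lay between the other two. OCLN stood at 8.37 ± 0.056, 8.47 ± 0.14 and 8.27 ± 0.27. GJA1 stood at 10.38 ± 0.28, 10.34 ± 0.28 and 10.21 ± 0.43, and FATE1 at 8.68 ± 0.30, 8.80 ± 0.42 and 8.87 ± 0.31. CLU, PTGDS and TJP1 had group means that lay close together, namely 13.59 ± 0.027, 13.54 ± 0.054 and 13.55 ± 0.043 for CLU, 13.57 ± 0.075, 13.53 ± 0.095 and 13.52 ± 0.068 for PTGDS, and 10.66 ± 0.034, 10.67 ± 0.069 and 10.68 ± 0.094 for TJP1.

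In OSe against ISe, 6 of the 9 genes lay higher and 3 lower, with a median log2 difference of 0.10, where 15927 of all 26773 probe sets lay higher with a median of 0.02. The array median was 7.74 in OSe animal 2 and 7.61 to 7.65 in the other calves. The part of that array in the count over all probe sets was not tested. None of the 9 passed (limma, adjusted p = 0.9999 in each; background 0%), and 0 of 9 had an unadjusted p under 0.05 (2.62% of all probe sets). The largest difference was that of CLDN11, 0.22 ± 0.19 (SE), with a 95% interval from -0.19 to 0.63. It went to 0.03 without OSe animal 2. TF was at 0.17 ± 0.22 (-0.31 to 0.65), and CDH2 at 0.13 ± 0.12 (-0.13 to 0.39). With any 1 calf left out, TF ran from 0.06 to 0.32 and CDH2 from 0.07 to 0.19. The narrowest interval was that of CLU, at -0.05 ± 0.06 (-0.18 to 0.07). In all 9 genes the groups overlapped, against 0.743% of probe sets whose groups did not.

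In Mix against ISe, 4 genes lay higher and 5 lower, with a median log2 difference of -0.04, where 13782 of all probe sets lay higher. None passed (limma, adjusted p from 0.967 to 0.981; background 0%), and 0 of 9 had an unadjusted p under 0.05 (3.72% of all probe sets). TF had the largest difference, -0.35 ± 0.22 (SE; 95% interval -0.83 to 0.13), and CLDN11 followed with 0.29 ± 0.19 (-0.12 to 0.71). The order of these genes turned on single calves: without ISe animal 1, TF was at -0.19 and CLDN11 at 0.32, and without Mix animal 2, TF was at -0.20 and CLDN11 at 0.26. CLDN11 was at 0.20 without ISe animal 5. CDH2 had the smallest p of the 9, at 0.21 ± 0.12 (SE; 95% interval -0.05 to 0.47), unadjusted p = 0.10 in limma. FATE1 was at 0.19 ± 0.21 (-0.26 to 0.63) and GJA1 at -0.16 ± 0.20 (-0.59 to 0.27). FATE1 went to 0.04 without Mix animal 2, and GJA1 to -0.0074 without Mix animal 3. OCLN was at -0.09 ± 0.11 (-0.33 to 0.15), and at 0.03 without Mix animal 2. The groups overlapped in all 9 genes (1.02% of probe sets did not overlap).

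Mix was also compared with OSe, and here TF had the lowest p of the 9 genes. TF was lower in Mix by a log2 difference of -0.51 ± 0.23 (SE, 1.43-fold; 95% interval -1.02 to -0.01). Its unadjusted p was 0.0466 in limma and its adjusted p 0.582, so the difference did not pass the test. By that unadjusted measure 1 of 9 genes stood against 8.53% of all probe sets, and in 1 of 9, TF, the groups did not overlap, against 4.24% of all probe sets. With 9 genes, 1 is near both backgrounds. The difference stayed below 0 when any calf was left out, from -0.60 to -0.37, the latter without Mix animal 2. OCLN followed with -0.19 ± 0.12 (-0.45 to 0.06), which went to -0.075 without Mix animal 2 and to -0.13 without OSe animal 1, and the remaining 7 lay between -0.13 and 0.08. Marker lists of the cell types were read beside it. Over all probe sets 12125 of 26773 lay higher in Mix and 14648 lower. Germ cell markers lay higher in Mix in 13 of 14 genes, with a mean deviation per calf of 0.07 to 0.43 in Mix and -0.29 to 0.06 in OSe. Macrophage markers lay higher in 7 of 8 (-0.03 to 0.40 against -0.52 to 0.13). Endothelial markers lay lower in 9 of 9 (-0.16 to -0.02 against -0.11 to 0.33), Leydig cell markers in 7 of 9 (-0.21 to 0.14 against -0.28 to 0.50) and Sertoli cell markers in 10 of 13 (-0.07 to 0.07 against -0.04 to 0.10). The ranges of the 2 groups overlapped in each of these lists but that of the germ cells. There they lay barely apart, at 0.064 in OSe animal 1 and 0.066 in Mix animal 1. Rete and duct epithelium markers lay higher in Mix in 5 of 9 genes, and the ranges met at 0.004. Blood cell markers lay higher in 4 of 6 and peritubular markers in 3 of 7. No marker list had a member past an adjusted p of 0.05, no marker was at 0 (the lowest value of any probe set was 2.07), and their part in the TF values was not tested.

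**Figure D3:**
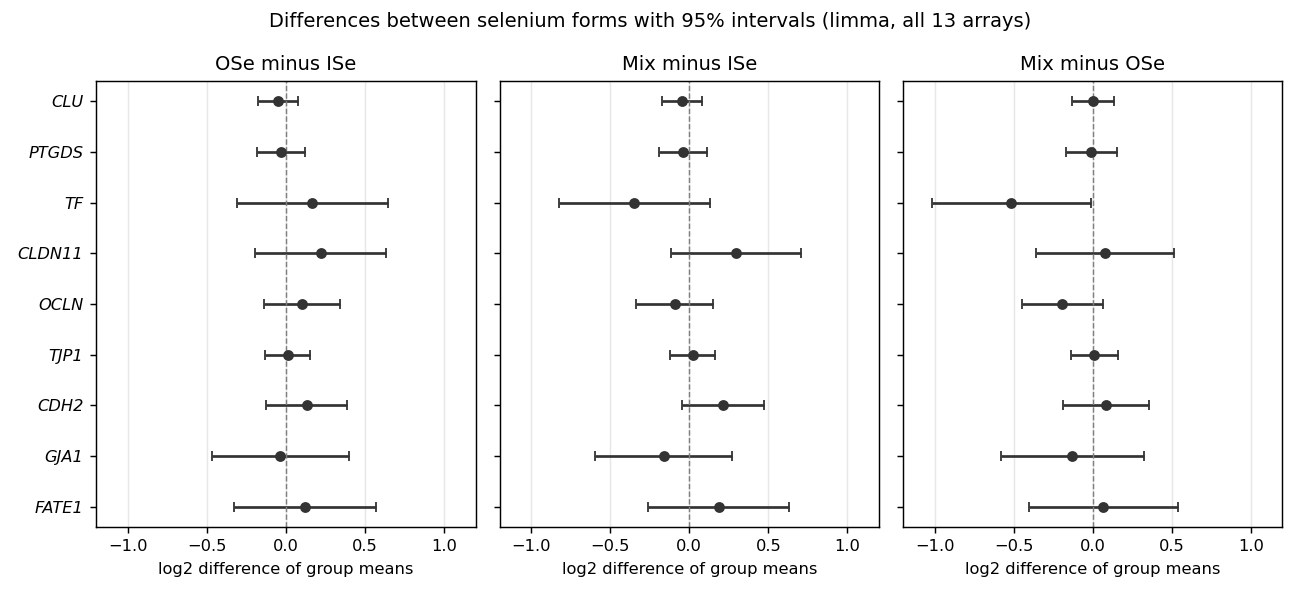
Log2 difference of group means (x axis, points) with its 95% interval from limma (bars) for each gene in OSe minus ISe, Mix minus ISe and Mix minus OSe. Every interval but that of TF in Mix minus OSe (-1.02 to -0.01) crosses 0, and the intervals of CLU, PTGDS and TJP1 are the narrowest.

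Other genes of the same systems were counted beside the 9. Of 26 distinct tight junction genes on a fixed list, 24 were measured and 0 passed the test in any comparison. They lay higher in 16, 14 and 11 of 24 in OSe against ISe, Mix against ISe and Mix against OSe, with medians of 0.04, 0.02 and -0.05. The first by p of the F test was PATJ, a polarity scaffold of the junction, at 9.94 ± 0.16 (SD) in ISe, 10.13 ± 0.17 in OSe and 9.77 ± 0.13 in Mix (limma, adjusted p = 0.954). CLDN1, an epithelial claudin, had the widest spread of the list, from 9.80 to 12.42 over calves, and group means of 10.83 ± 0.43, 10.58 ± 0.53 and 11.47 ± 0.77. Of 21 cadherin, catenin and nectin genes, 14, 10 and 9 lay higher in the 3 comparisons (medians 0.06, -0.0046 and -0.06), and 0 passed. JUP, the junction plakoglobin, came first with 10.25 ± 0.17, 10.10 ± 0.16 and 10.45 ± 0.31.

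Of 18 other channel genes of the connexin and pannexin families, PANX1 and PANX2 among them, 14 were measured, 9 of them above the 25th percentile of all means. They lay higher in 8, 8 and 10 of 14, with medians of 0.02, 0.04 and 0.07, and 0 passed. GJC3 was first by p, at 8.55 ± 0.40 in ISe, 8.66 ± 0.30 in OSe and 8.05 ± 0.27 in Mix. Among other secreted products of Sertoli cells, 26 of 32 were measured, of which 19, 12 and 9 lay higher (medians 0.04, -0.02 and -0.04), and 0 passed. CTSV, a cysteine protease of the cathepsin L group, was first, at 12.62 ± 0.14, 12.61 ± 0.04 and 12.38 ± 0.09. RBP4, the retinol carrier, followed with 10.25 ± 0.24, 10.02 ± 0.17 and 10.02 ± 0.10. In limma's F test, all 4 of these lists together thus held no gene past the threshold, and the lowest adjusted p was 0.954.

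Whether the 9 genes varied together over calves was examined in all 36 pairs. They did not move as 1 block: 17 pairs correlated positively and 19 negatively, with a median Pearson r of -0.10 over 13 calves. Before adjustment 4 of 36 pairs had a permutation p under 0.05, and after adjustment over the 36 pairs 0 did (lowest 0.20). By Spearman's rho the counts were 6 and 0 (lowest 0.0760). The secreted products CLU and PTGDS both ran opposite to the junction gene CLDN11. For CLU and CLDN11 r was -0.67 (permutation p = 0.0124) and rho -0.61 (p = 0.0304), and 1.4% of all probe sets correlated with CLU at least as strongly in either direction. Without OSe animal 2 and Mix animal 2, the calves farthest from the median of CLU, r was -0.38, and without OSe animal 2 alone it was -0.49. For PTGDS and CLDN11 r was -0.59 (permutation p = 0.0325) and rho -0.52 (p = 0.0704), and r was -0.32 without the same pair of calves and -0.44 without OSe animal 2 alone. Of all probe sets, 5.0% correlated at least as strongly with PTGDS and 3.5% with CLDN11. After quantile normalization r was -0.52 for CLU with CLDN11 and -0.56 for PTGDS with CLDN11. Both relations thus rest in part on those calves.

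TJP1 and GJA1, the scaffold and the connexin, varied in parallel, with r = 0.65 (permutation p = 0.0161, adjusted p = 0.20) and rho = 0.57 (p = 0.0462). Without OSe animal 2 and Mix animal 4 r was 0.45. It was 0.71 within groups, that is after each group's mean was subtracted. After quantile normalization r was 0.38. This pair passed the adjusted threshold when ISe animal 3 was left out (r = 0.83, adjusted permutation p = 0.0288). With all calves, 2.9% of all probe sets correlated at least as strongly with TJP1 and 4.3% with GJA1. OCLN ran opposite to FATE1, with r = -0.64 (permutation p = 0.0167, adjusted p = 0.20), rho = -0.75 (p = 0.00459), -0.44 without OSe animal 1 and Mix animal 2, and -0.71 within groups. Here 5.3% of all probe sets correlated at least as strongly with OCLN and 1.3% with FATE1. OCLN and TJP1, whose proteins bind each other, had r = -0.53 (permutation p = 0.0681) and rho = -0.77 (p = 0.00313, adjusted p = 0.0760). TJP1 and FATE1 had r = 0.46 (permutation p = 0.115) and rho = 0.73 (p = 0.00633), and GJA1 and OCLN r = -0.42 (p = 0.156) and rho = -0.59 (p = 0.0382). CDH2 and TF had no pair with a p under 0.05. All values of CLU lie within 0.16 log2 units, those of PTGDS within 0.21 and those of TJP1 within 0.22, and the order of calves in these 3 genes, and every correlation with them, rests on small differences.

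**Figure D4:**
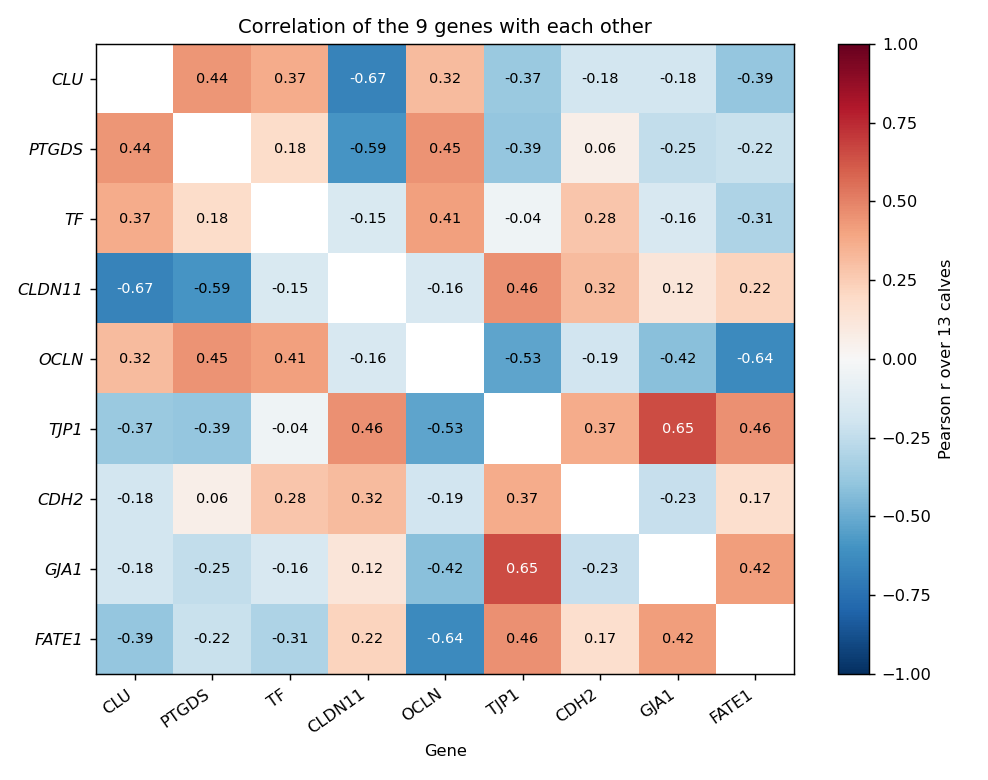
Pearson r over 13 calves for each pair of the 9 genes, blue for opposite and red for parallel variation, with r printed in each cell. The strongest cells are CLU with CLDN11 (-0.67), TJP1 with GJA1 (0.65) and OCLN with FATE1 (-0.64).

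Each gene was then set beside the mean level of markers of 8 cell types in the same calf, 72 relations in all, with the 9 genes themselves kept out of the lists. After adjustment over the 72 relations 0 passed (lowest permutation p 0.179 for r and 0.130 for rho), and before adjustment 7 and 9 did. The Sertoli cell list was steady, at -0.11 to 0.01 (mean log2 deviation per calf) in ISe, -0.04 to 0.10 in OSe and -0.07 to 0.07 in Mix. None of the 9 genes followed it closely. Over so narrow a range a relation with the list could be missed, which was not tested. The highest r was 0.40 for CLDN11 (permutation p = 0.179, rho 0.31), and PTGDS ran against it with r = -0.61 (permutation p = 0.0281, adjusted p = 0.395) and rho = -0.45 (p = 0.128). Without OSe animal 2 and ISe animal 3 the latter r was -0.41, and without OSe animal 2 alone -0.49. It was -0.34 after quantile normalization and also after each array was centred on its median.

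The peritubular list held smooth muscle genes such as MYH11 and CNN1. It ran against CLU (r = -0.75, permutation p = 0.00341, adjusted p = 0.179; rho -0.63) and with CLDN11 (r = 0.63, p = 0.0215; rho 0.44) and GJA1 (r = 0.60, p = 0.0291; rho 0.80). Its highest calf was OSe animal 2, at 0.42, and without that calf the r of CLU was -0.58 and that of CLDN11 0.38. That of GJA1 was 0.60. The relation of CLU passed the adjusted threshold after quantile normalization (r = -0.84, adjusted permutation p = 0.0252) and within groups (r = -0.82, adjusted permutation p = 0.0410). FATE1 ran with the Leydig cell list (r = 0.72, permutation p = 0.00498, adjusted p = 0.179; rho 0.71) and not with the Sertoli cell list (r = -0.08, p = 0.797; rho -0.12). The difference between those 2 values of r was not tested. Without OSe animals 1 and 3, the ends of the Leydig range at -0.28 and 0.50, r was 0.48, and without OSe animal 4 it was 0.85 (adjusted permutation p = 0.0209). GJA1 also ran with the Leydig list (r = 0.52, permutation p = 0.0699; rho 0.64), and OCLN against it (r = -0.47, p = 0.108; rho -0.67). CLDN11 ran with the rete and duct epithelium list (r = 0.58, permutation p = 0.0384; rho 0.68), with r = 0.39 after median centring. PTGDS ran against the peritubular list (r = -0.57, permutation p = 0.0365; rho -0.48). Its r was -0.38 without OSe animal 2 and -0.78 without ISe animal 3 (adjusted permutation p = 0.0515). PTGDS also ran against the rete and duct epithelium list (r = -0.51, permutation p = 0.0761, rho -0.65). Against the endothelial list its r was -0.51 (permutation p = 0.0709, rho -0.58). After median centring these values of r were -0.13 and -0.58. CDH2 ran against the endothelial list (r = -0.46, permutation p = 0.113, rho -0.63).

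**Figure D5:**
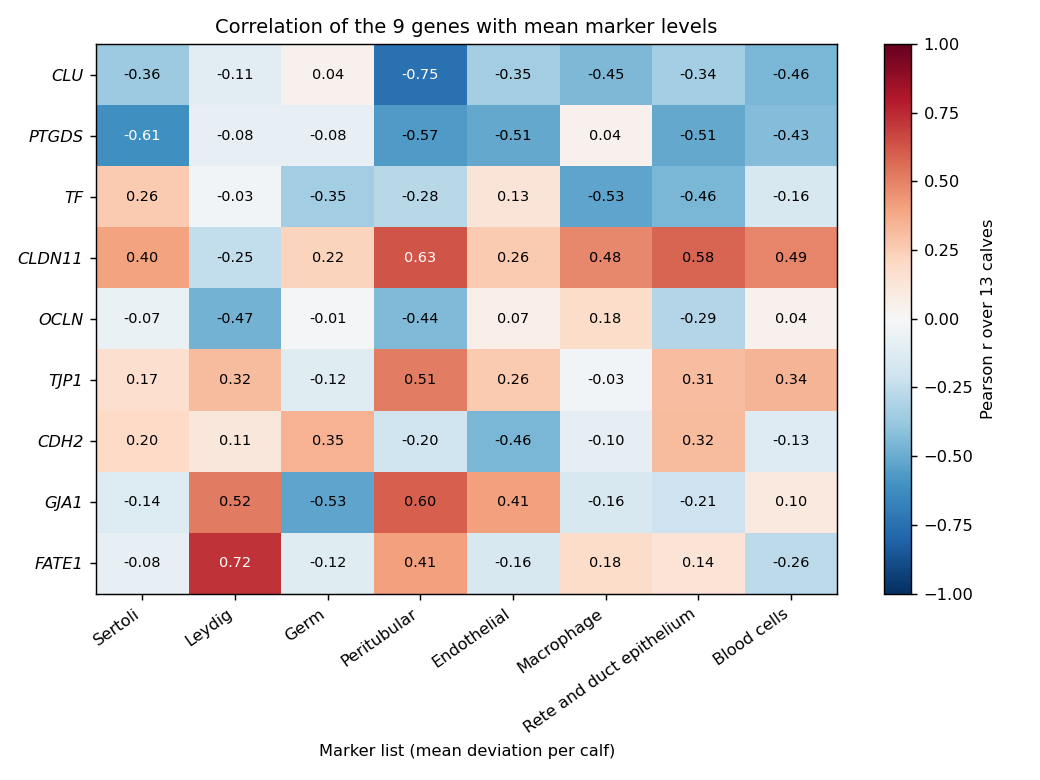
Pearson r over 13 calves between each of the 9 genes and the mean deviation of 8 marker lists, red for parallel and blue for opposite variation. CLU with the peritubular list (-0.75) and FATE1 with the Leydig list (0.72) are the strongest cells, and the Sertoli column runs from -0.61 (PTGDS) to 0.40 (CLDN11).

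The genes most alike to each of the 9 over the 13 calves were taken from 14164 candidate genes with means above the 25th percentile. As they are the highest of so many, their r values are a description with no test. GJA1 had most companions, with 59 genes (0.42%) with r above 0.8, led by FBXO3 (0.92), CMPK1 (0.90) and SAR1A (0.90). OCLN had 55, led by VIPAS39 (0.92), TRIM45 (0.90) and MKS1 (0.89). TF had 46, led by DDB1 (0.91), ISY1 (0.89) and SUGP2 (0.89). TJP1 had 38, led by PHF20L1, SLC25A17 and EIF4H (0.90 each). CLDN11 had 15, among them the transcription factor KLF6 (0.88), the guanylate cyclase subunit GUCY1B1 (0.87) and the receptor PTH2R (0.86).

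CLU and PTGDS had few companions. CLU had 3, namely AIF1L (0.86), WRAP73 (0.81) and SLC25A44 (0.80). PTGDS had 4, led by FBXL14 (0.87), RTN4IP1 (0.86) and SARS2 (0.85). FATE1 also had 4, led by LSM1 (0.85), GAB3 (0.84) and RWDD3 (0.81), and CDH2 had 2, NOD1 (0.85) and VCPIP1 (0.82), with RNF128 next (0.80). None of the 27 genes listed is on the Sertoli cell, secreted product or junction lists. Those lists hold few of the 14164 candidates, so their absence says little. Within groups their r stayed between 0.75 (SLC25A44 with CLU) and 0.93 (PHF20L1 and EIF4H with TJP1, FBXO3 with GJA1). Without the 2 calves farthest from the median of the gene, it fell to 0.53 for SLC25A44 with CLU and to 0.60 for TRIM45 with OCLN.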

How the data were processed

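The authors deposited 1 table of log2 expression values for 26773 probe sets on 13 arrays. Per the labels' protocols, RNA came from Trizol extraction and cDNA was primed with oligo(dT), then copied into biotinylated cRNA. The submitters' processing notes name GCOS 1.2 and Partek 6.4 but not what each did. Background correction, probe summary and normalization are not given in the sources used here, and values between 2.07 and 14.6 show a log2 scale. Depth does not apply to arrays, and the number of arrays limits precision. Column medians ran from 7.61 to 7.74, array correlations from 0.979 to 0.991, and centring stays unknown. Scanner files were not used here.

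Groups came from the sample titles. Exactly 1 symbol was annotated to 18550 probe sets, several to 595 and none to 7628. A single model with a mean per group was fitted to all probe sets in limma 3.58.1 (R 4.3.3) and moderated by empirical Bayes, with 3.28 prior degrees of freedom. All p-values are two-sided. Adjusted p-values of limma are Benjamini-Hochberg adjusted over all probe sets, and those of correlations over the 36 pairs or the 72 relations, with a threshold of 0.05; p-values called unadjusted, and permutation p-values not called adjusted, are raw. Correlations used 100000 permutations and numpy 2.4.6. Fits and correlations were tested on simulated data first. The genes and lists were chosen with earlier results of these data known. Named genes are the 9, the 3 genes with the highest r for each, and the first of each junction or secreted product list by the F test. RBP4 was added as the next of its list by that test, and CLDN1 for its wide spread. Marker genes of the cell types are named as examples or for their level. One list held PALS1 under its older name too, which was dropped. KITLG and DHH stand on both the Sertoli cell and the secreted product list, and ESAM, CDH5 and CDH1 each on a junction and a marker list. Genes of a list without a probe set of their own were not used here. Animal numbers are shared by the groups but mark different calves; over 12 same-numbered pairs the deviations from group means correlated at -0.15 to 0.10, and 0 were over 0.1. Alternatives covered normalization, centring, filters, moderation, array weights, fits of 2 groups, the replicate block and leaving out each calf.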

Additional observations from a re-analysis of the deposited data

Results flagged for a closer look

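Among 27 sets of values (9 genes in 3 groups), 2 held a calf far from the rest of its group. PTGDS in Mix animal 2 was at 13.42, against 13.55 to 13.57 in the other Mix calves, so that its gap took 0.901 of the range of the group, which is above Dixon's 95% critical value for 4 samples. CLDN11 in Mix animal 1 was at 8.21, against 8.56 to 8.61, with a gap of 0.877 of the range. Chance alone gives about 1 in 20 such sets. The gap for PTGDS is small in absolute terms, and CLDN11 in Mix animal 1 lies inside the range of the ISe calves.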

How the results depend on the processing

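Under the alternatives run, 0 of the 9 genes passed an adjusted p of 0.05 in the F test or in any of the 3 comparisons, and leaving out each calf gave 0 as well. The replicate block also gave 0 of 9 in each (TF in Mix minus OSe at -0.51, adjusted p = 0.680), and the animal numbers do not pair calves. Over all probe sets, 0 to 1 passed in the F test and in Mix minus OSe when a calf was left out, the 1 without OSe animal 3. The sign turned in 7 of 243 values under the other alternatives, none larger than 0.02: TJP1 in OSe minus ISe (-0.016 after quantile normalization, -0.013 after median centring, -0.0022 with array weights), PTGDS in Mix minus ISe (0.0025 after quantile normalization), PTGDS in Mix minus OSe (0.019 and 0.013 after quantile normalization and median centring) and CLU in Mix minus OSe (-0.0079 with array weights). Leaving out 1 calf turned 12 of 27 differences. In OSe minus ISe these were PTGDS (-0.065 to 0.0031), TJP1 (-0.020 to 0.030), GJA1 (-0.12 to 0.10) and FATE1 (-0.077 to 0.23). In Mix minus ISe they were TJP1 (-0.018 to 0.056) and OCLN (-0.17 to 0.026). In Mix minus OSe they were CLU (-0.019 to 0.025), PTGDS (-0.045 to 0.025), CLDN11 (-0.050 to 0.26), TJP1 (-0.030 to 0.044), GJA1 (-0.31 to 0.028) and FATE1 (-0.077 to 0.26). Among pairs of the 9 genes, 0 to 1 passed when a calf was left out, the 1 without ISe animal 3. Among relations with marker lists, 1 passed after quantile normalization and 1 within groups, both times CLU with the peritubular list, and 0 to 1 when a calf was left out, the 1 being FATE1 with the Leydig list without OSe animal 4. The within-group p takes no account of the fitted group means, and the cause of the other changes was not tested. Averaging probe sets per gene left the 9 genes as they were, since each has 1.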
